A study of Mus musculus with 5 samples.

Results

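The 10 genes described here are the vascular growth factor Vegfa and 9 genes of endothelial cells: the VEGF receptors Flt1 and Kdr, the angiopoietin receptor Tek, the TGF-beta coreceptor Eng, the junction proteins Pecam1 and Cdh5, the sialomucin Emcn, the diaphragm protein Plvap and the endocytic protein Ehd3. They were chosen by name, and all 10 were found, of 22980 genes listed in either of the deposited tables of UMI counts. Each of the 10 was listed in each of the 5 libraries, so a count of 0 in a cell class is a measured 0. The libraries came from mouse kidney, with 1 library per group: whole cells by Dropseq, and nuclei by sNucDropseq, DroNcSeq and 10x Chromium (labelled TenxNuc) from healthy kidney, and 10x nuclei from kidney on day 14 of unilateral ureteral obstruction (UUO), an operation that blocks urine outflow and leads to fibrosis. The labels' dissociation protocol for cells names a C57BL/6 mouse. For the nuclei the strain, and for each library the age, sex and number of animals, are not stated by the labels. All groups share kidney as the source, no sort on a marker is described, and the cell suspension was gated on light scatter.

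VEGF-A is secreted and acts on neighbouring endothelium through Kdr (VEGFR2), the main signalling receptor, while Flt1 (VEGFR1) binds VEGF-A tightly and limits what reaches Kdr. In the kidney, podocytes are its best-known source, and the fenestrated endothelium of the glomerulus and of the peritubular capillaries depends on it. Angiopoietin-1 acting on Tek (TIE2) keeps vessels quiescent. Ehd3 is known as a marker of glomerular endothelium, and Plvap forms the diaphragms of the fenestrae of peritubular capillaries.

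The sequence just upstream of the annotated start is shown for the ligand and for 4 endothelial genes. The results turn on Vegfa, Flt1, Kdr and Emcn, and these endothelial genes share a cell class but not the exact string AGGAAG. RefSeq promoter windows (GRCm38.p6, the assembly also named mm10) were found for 7 of the 10 genes. The bases are read 5′ to 3′ on the gene's strand and end before its first exon. Capitals mark AGGAAG or its reverse complement CTTCCT in the endothelial genes, and GGGCGG, an SP1 box, in Vegfa. AGGAAG is among the sequences that ETS factors such as ERG and FLI1 bind.
Vegfa, chr17:46032378-46032627, minus strand: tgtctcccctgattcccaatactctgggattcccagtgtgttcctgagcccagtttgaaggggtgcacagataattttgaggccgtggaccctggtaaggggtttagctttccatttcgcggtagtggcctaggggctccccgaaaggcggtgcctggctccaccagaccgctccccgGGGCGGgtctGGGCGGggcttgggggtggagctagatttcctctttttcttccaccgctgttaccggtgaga
Flt1, chr5:147726012-147726261, minus strand: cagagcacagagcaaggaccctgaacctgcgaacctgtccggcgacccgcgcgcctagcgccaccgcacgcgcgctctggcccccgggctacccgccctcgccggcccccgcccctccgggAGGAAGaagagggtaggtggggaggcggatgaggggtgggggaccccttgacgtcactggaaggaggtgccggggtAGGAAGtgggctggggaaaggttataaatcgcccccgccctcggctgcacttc
Kdr, chr5:75978459-75978705, minus strand: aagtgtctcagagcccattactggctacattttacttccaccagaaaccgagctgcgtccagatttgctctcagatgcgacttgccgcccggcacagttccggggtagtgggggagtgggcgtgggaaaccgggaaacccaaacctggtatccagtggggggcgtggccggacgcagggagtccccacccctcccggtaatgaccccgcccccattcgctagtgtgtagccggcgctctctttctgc
Emcn, chr3:137340828-137341066, plus strand: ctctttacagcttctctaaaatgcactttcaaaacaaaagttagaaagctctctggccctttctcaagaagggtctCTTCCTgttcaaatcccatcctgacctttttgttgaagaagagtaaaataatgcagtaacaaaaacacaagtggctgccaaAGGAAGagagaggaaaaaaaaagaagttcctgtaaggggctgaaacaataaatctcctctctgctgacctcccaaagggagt
Eng, chr2:32646345-32646594, plus strand: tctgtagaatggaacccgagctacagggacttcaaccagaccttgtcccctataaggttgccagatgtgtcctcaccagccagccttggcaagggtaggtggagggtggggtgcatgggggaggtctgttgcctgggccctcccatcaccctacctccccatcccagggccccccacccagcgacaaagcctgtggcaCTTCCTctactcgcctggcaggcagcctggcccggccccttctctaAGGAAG
The Flt1, Emcn and Eng windows each held 2 matches to AGGAAG on either strand, and the windows of Kdr, Tek, Ehd3 and Vegfa held 0. That is 3 of 6 endothelial genes with a window. Only this exact string was searched, so 0 matches does not mean that a window lacks other ETS sites. The RefSeq start behind the Ehd3 window lies 707 bases from the GENCODE vM21 start, and the window begins in an annotated exon. Its 0 is therefore not a value for sequence just upstream of the GENCODE start. Across 32851 RefSeq windows of 250 bases, 29.5% held this motif. GGGCGG or CCGCCC was in 32.7% of windows, with 3 matches in Flt1, 2 in Kdr and 2 in Vegfa. The hypoxia response core ACGTG or CACGT, in 16.6% of all windows, had 0 matches in the windows of the 7 genes. A match is a description of letters, and these data hold no measure of binding.

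On mm10 with GENCODE vM21 gene models, Flt1 lies on the minus strand of chr5:147561604-147726011 and Kdr on the minus strand of chr5:75932827-75978458. Vegfa spans chr17:46016993-46032369 on the minus strand and Ehd3 chr17:73804134-73832094 on the plus strand. Pecam1 spans chr11:106654217-106750628 (minus), Cdh5 chr8:104101625-104144511 (plus), Emcn chr3:137341067-137432185 (plus) and Tek chr4:94739289-94874976 (plus). Plvap, at chr8:71497765-71511752 on the minus strand, overlaps Gtpbp3 on the other strand. Eng, at chr2:32646595-32682669 on the plus strand, overlaps Fpgs on the other strand. The strand setting of the counting is not stated, so reads of Plvap and Gtpbp3, and of Eng and Fpgs, cannot be told apart where they overlap.

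The series held 17542 barcodes, and the library totals ran from 2947137 UMIs in healthy 10x nuclei to 7411036 in UUO nuclei. The authors' label EC was on 645 barcodes. It was on 20 of the Dropseq cells, 147 of the sNucDropseq nuclei, 106 of the DroNcSeq nuclei, 46 of the healthy 10x nuclei and 326 of the UUO nuclei, with 31983, 155154, 171366, 54128 and 253958 UMIs in the same order. Levels below are CPM, a gene's summed counts in a label scaled to 1000000 of that label's UMIs. Intervals are exact 95% intervals and cover counting error only, since no group has a replicate. The 2 10x libraries shared 23 barcode sequences, 0 of them labelled EC in either. They also differed in sex-linked transcripts: Xist was at 1321 CPM in healthy 10x nuclei and 0.405 CPM in UUO nuclei, and 4 Y-linked genes summed to 3.73 and 619 CPM. DroNcSeq nuclei, with Xist at 1309 CPM and the Y-linked genes at 8.70, differed from UUO nuclei in the same way. In sNucDropseq nuclei the values were 0 and 446 CPM, on the side of UUO. Sex-linked signal and obstruction thus cannot be told apart against healthy 10x or DroNcSeq. Nor can sex-linked signal and platform be told apart between sNucDropseq and the other healthy nuclei. Fewer endothelial cells and less RNA per cell cannot be told apart in levels over a whole library, so levels are given within labels.

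Levels of markers within the label are described first. A broad list of other endothelial genes, among them Egfl7, Adgrl4 and Ptprb, summed to 9597 CPM in sNucDropseq, 11554 in DroNcSeq, 11159 in healthy 10x and 13494 in UUO endothelium, but to 1813 CPM in the 20 Dropseq cells. Of the 9 endothelial genes together, the level in proximal tubule was between 2.29% and 3.58% of that in endothelium in every library. For single genes in nuclei it ran from 0.76% (Ehd3 in healthy 10x) to 34.9% (Ehd3 in UUO, with 1 count in endothelium). In healthy 10x it was 13.7% for Cdh5, 11.7% for Pecam1 and 11.4% for Plvap. These percentages are the background beside which endothelial values are read. Barcodes labelled EC with a count of 0 for all 9 genes numbered 7 of 20 in Dropseq, 0 of 147 in sNucDropseq, 1 of 106 in DroNcSeq, 5 of 46 in healthy 10x and 36 of 326 in UUO. The median barcode held 1, 6, 10, 3 and 2 counts of the 9 genes in the same order. The authors made the labels from these same counts, so these values describe the label and are no independent support for it. Barcodes with 3 counts or more numbered 3 of 20 in Dropseq, 134 of 147 in sNucDropseq and 99 of 106 in DroNcSeq. In healthy 10x they numbered 27 of 46 and in UUO 157 of 326.

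RNA of other cell types was also in the endothelial sums, and more of it in the healthy ones. The proximal tubule list summed to 5234 CPM in sNucDropseq, 6168 in DroNcSeq, 1774 in healthy 10x and 287 in UUO endothelium. Healthy 10x endothelium held 4914 CPM of the thick ascending limb list, 240 of 266 counts from Slc12a1, against 165 CPM in UUO. Its podocyte list stood at 3843 CPM against 827 in UUO. Of those 208 healthy 10x podocyte counts 157 were Magi2 and 128 lay in 1 barcode, and in UUO Nphs1 and Wt1 were at 0. Barcodes with 5 or more tubule or podocyte counts made up 43.5% of the endothelial label in sNucDropseq, 39.6% in DroNcSeq, 43.5% in healthy 10x and 3.07% in UUO. They held 57.7%, 61.2%, 65.8% and 10.2% of its UMIs. Pericyte, mesangial and fibroblast genes summed to 174, 193, 203 and 201 CPM in the same order, and the lymphatic genes Lyve1 and Mmrn1 were at 0 in the endothelium of all 4 nucleus libraries. The UUO ratios of the endothelial genes and the counts of the gene lists in endothelium are therefore also given without those barcodes, and beyond that the part of this RNA in a result was not tested.

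Vegfa was highest in podocytes in each nucleus library. The podocyte label held 126 counts of Vegfa in 55 sNucDropseq nuclei, or 973 CPM (811 to 1159). It held 235 counts in 78 DroNcSeq nuclei, or 1205 CPM (1056 to 1370), and 100 counts in 53 healthy 10x nuclei, or 892 CPM (726 to 1085). In the 87 UUO podocyte nuclei there were 39 counts, or 397 CPM (282 to 543). The 3 healthy intervals overlap one another, and the UUO interval lies below all of them. The label carried podocyte genes in each of these libraries, with the podocyte list between 36686 CPM in healthy 10x and 67191 in DroNcSeq.

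Tubule labels made up a second, lower tier. Across proximal tubule, ascending and descending limb, distal convoluted tubule, connecting tubule, principal cells and intercalated cells, Vegfa lay between 202 and 300.2 CPM in sNucDropseq and between 134 and 288 in DroNcSeq. The range was 51.9 to 114 CPM in healthy 10x nuclei and 8.34 to 37.6 in UUO nuclei. In healthy kidney the tubule tier thus differed between the nucleus libraries by more than the podocyte level did. Vegfa in the endothelial label was near the low end of the healthy tubule ranges, at 206 CPM in sNucDropseq, 123 in DroNcSeq and 55.4 in healthy 10x. It was at 0 in UUO. The part of free RNA in the tubule levels was not tested. Podocytes stood 3.45-fold (2.85 to 4.15) above all other barcodes in sNucDropseq, 5.08-fold (4.41 to 5.84) in DroNcSeq, 9.07-fold (7.14 to 11.4) in healthy 10x and 21.4-fold (14.6 to 30.7) in UUO. Neighbouring tubule labels mostly had overlapping intervals, as for ascending limb at 106 CPM (82.6 to 134) and proximal tubule at 109 (91.5 to 130) in healthy 10x nuclei.

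Most Vegfa counts still lay in tubule labels, because tubule barcodes are many. Proximal tubule held 61.2% of the library's Vegfa counts in sNucDropseq, 53.0% in DroNcSeq, 34.3% in healthy 10x and 29.1% in UUO. Podocytes held 9.03%, 14.9%, 26.4% and 22.3%, from 1.83% of barcodes in sNucDropseq. In Dropseq cells 381 of 452 counts were in proximal tubule, at 64.6 CPM (58.3 to 71.5). With 2 cells labelled Pod and 1 count of Vegfa in them, the podocyte level of Dropseq cells is not measurable at this depth.

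**Figure D1:**
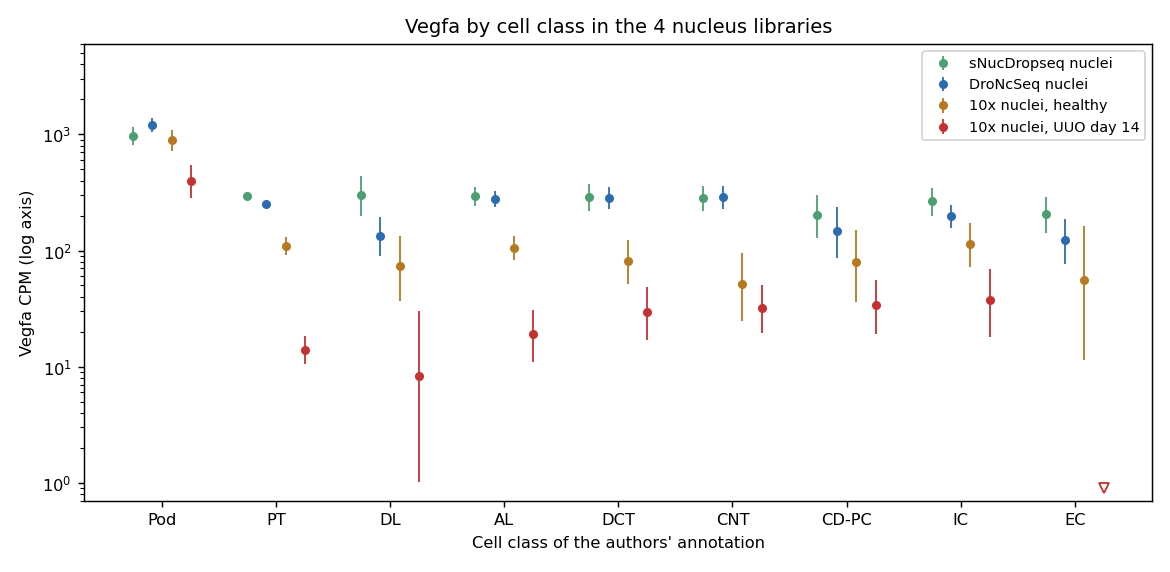
Vegfa by cell label in the 4 nucleus libraries, in CPM on a log axis with exact 95% Poisson intervals, where a triangle marks a label with 0 counts (Pod podocytes, PT proximal tubule, DL and AL descending and ascending limb, DCT distal convoluted tubule, CNT connecting tubule, CD-PC principal cells, IC intercalated cells, EC endothelium). Podocytes are the highest label in each library, from 397 CPM in UUO to 1205 in DroNcSeq nuclei, and the UUO tubule labels lie between 8.34 and 37.6 CPM.

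In obstructed kidney Vegfa was lower in the tubule labels. In proximal tubule it was at 109 CPM (130 counts) in healthy 10x nuclei and 14.03 CPM (51 counts, 10.4 to 18.4) in UUO nuclei, a log2 ratio of -2.96 (-3.46 to -2.49). The ascending limb went from 106 to 19.1 CPM (-2.48), intercalated cells from 114 to 37.6 (-1.60), distal convoluted tubule from 82.0 to 29.6 (-1.47) and principal cells from 78.9 to 33.9 (-1.22, -2.51 to 0.15). In podocytes the ratio was -1.17 (-1.74 to -0.62). Connecting tubule stood at 51.9 and 32.2 CPM, with a ratio of -0.69 (-1.87 to 0.58) that counting error alone could give.

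A label counts as measured when its 2 sums held at least 20 counts, and as lower when the ratio passed 2-fold. By that rule Vegfa was lower in 6 of 7 labels measured, and the share of all measured genes that were lower was 20.7% in proximal tubule, 17.2% in ascending limb, 14.4% in distal convoluted tubule, 13.2% in connecting tubule, 13.3% in principal cells, 12.4% in intercalated cells and 15.9% in podocytes. The descending limb, with 11 and 2 counts, was not measured. Against sNucDropseq the ratio was -4.40 in proximal tubule and -1.29 in podocytes, where 33.5% and 26.3% of all genes were lower. Against DroNcSeq it was -4.17 and -1.60, beside 29.7% and 24.3%. Those 3 comparisons share the UUO library. Within the UUO proximal tubule the labels did not separate: S1 was at 15.4 CPM, S2 at 13.1, S3 at 16.8, the dedifferentiated label at 15.4 and the proliferating label at 9.23, with overlapping intervals. The UUO labels Fib.1, Fib.2, Mac and JGA held between 1 and 4 counts each, or between 8.57 and 21.3 CPM.

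Endothelium itself showed Vegfa counts in healthy nuclei and 0 in UUO. There were 32 counts in sNucDropseq (206 CPM), 21 in DroNcSeq (123), 3 in healthy 10x (55.4) and 0 in 253958 UMIs of UUO endothelium. Taking 3 counts, or 11.8 CPM, as the most that a count of 0 allows, Vegfa was 17.5-fold below the sNucDropseq level. It was 10.4-fold below the DroNcSeq level. Those folds leave out the counting error of the healthy counts. The exact intervals of the log2 ratios, which cover it, reached up to -3.74 and -2.95. Without the barcodes that held 5 or more tubule or podocyte counts, Vegfa in endothelium was at 8 counts (122 CPM) in sNucDropseq and at 0 in DroNcSeq, healthy 10x and UUO. All 21 DroNcSeq and all 3 healthy 10x counts thus lay in barcodes that also carried tubule or podocyte RNA.

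The receptors of VEGF stood well above other labels in endothelium, and of the pair Kdr was past 2-fold lower in UUO and Flt1 was not. Flt1 had 289 counts in sNucDropseq endothelium (1863 CPM), 290 in DroNcSeq (1692), 53 in healthy 10x (979, 733 to 1281) and 354 in UUO (1394, 1252 to 1547). With all barcodes the UUO level fell inside the healthy range. Its log2 ratio was 0.51 (0.09 to 0.95) against healthy 10x, -0.42 against sNucDropseq and -0.28 against DroNcSeq, and without the barcodes with tubule or podocyte counts it was -0.19 (-0.72 to 0.38), -0.82 (-1.08 to -0.55) and -0.84 (-1.10 to -0.57). Flt1 was then at 1513 CPM in UUO, below 1728 in healthy 10x, 2667 in sNucDropseq and 2707 in DroNcSeq.

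Kdr was lower in UUO than in each healthy nucleus library. It had 48 counts in sNucDropseq endothelium (309 CPM, 228 to 410), 56 in DroNcSeq (327, 247 to 424), 16 in healthy 10x (296, 169 to 480) and 25 in UUO (98.4, 63.7 to 145). The healthy levels overlap closely, and the UUO interval lies below all 3. UUO endothelium was 3.003-fold lower than healthy 10x (log2 -1.59, -2.55 to -0.58), 3.14-fold lower than sNucDropseq (-1.65, -2.41 to -0.93) and 3.32-fold lower than DroNcSeq (-1.73, -2.47 to -1.03). The healthy 10x comparison rests on few barcodes, with 6 of the 16 counts in 1 barcode of 4074 UMIs. Without barcodes above 3 times the label's median UMIs, 6 healthy counts remained and the ratio was -0.40 (-1.76 to 1.20), while it was -1.52 against sNucDropseq and -1.57 against DroNcSeq. Leaving out barcodes with tubule or podocyte counts gave -1.36, -2.07 and -2.15.

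Nrp1, a coreceptor of Kdr that is not among the 10 genes, went the same way in endothelium. Its level was 1349 CPM in healthy 10x, 928 in sNucDropseq, 1144 in DroNcSeq and 413 in UUO, with log2 ratios of -1.71 (-2.15 to -1.25), -1.17 and -1.47. These were -2.20, -1.63 and -1.88 without the barcodes with tubule or podocyte counts. Outside endothelium its level was higher in UUO proximal tubule, at 279 CPM against 109 in healthy 10x. Nrp2, another coreceptor, was at 129 CPM in healthy 10x and 240 in UUO, with a ratio of 0.89 whose interval reached from -0.24 to 2.27.

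The angiopoietin receptor Tek was close to its healthy level. It had 96 counts in sNucDropseq endothelium (619 CPM), 126 in DroNcSeq (735), 27 in healthy 10x (499) and 133 in UUO (524). The ratios were 0.07 (-0.53 to 0.72), -0.24 and -0.49. Eng had 85, 101, 24 and 85 counts, or 548, 589, 443 and 335 CPM, with ratios of -0.41 (-1.07 to 0.31) against healthy 10x, -0.71 against sNucDropseq and -0.82 against DroNcSeq. UUO was the lowest of the 4 nucleus libraries for Eng, but not past 2-fold. Without the barcodes with tubule or podocyte counts the Eng ratios were -0.80, -1.17 and -1.43, and those of Tek -0.83, -0.59 and -1.12.

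**Figure D2:**
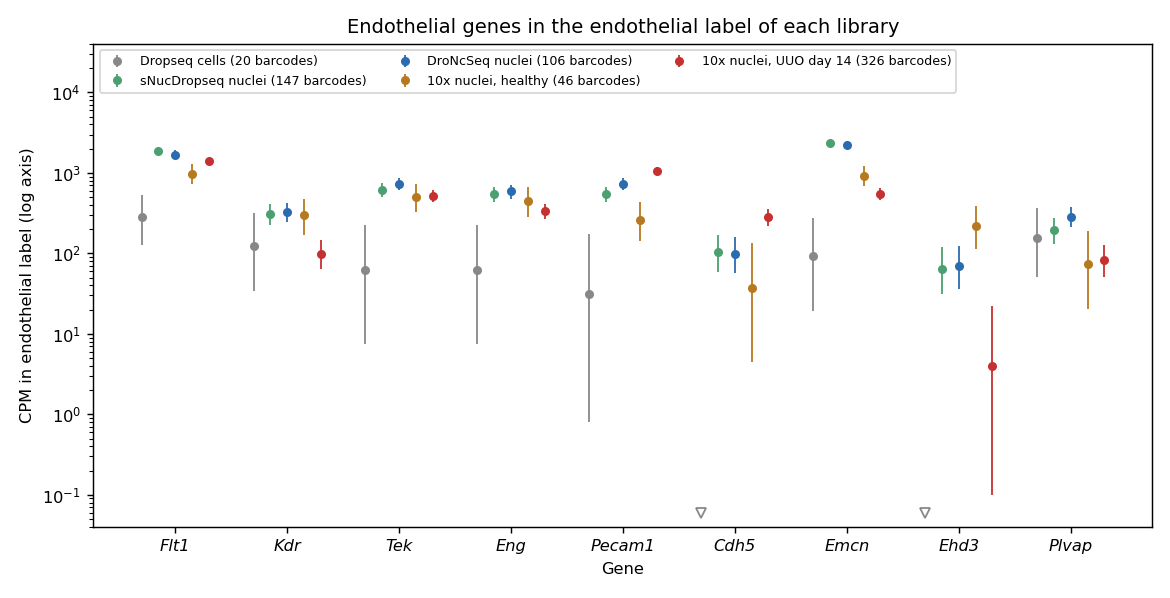
Levels of the 9 endothelial genes in the endothelial label of each library, in CPM on a log axis with exact 95% Poisson intervals and open triangles for 0 counts. Kdr and Ehd3 are lowest in the UUO nuclei among the nucleus libraries, at 98.4 and 3.94 CPM, Pecam1 and Cdh5 are highest there, at 1051 and 284 CPM, and the Dropseq intervals are wide.

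The junction genes were higher in UUO endothelium. Pecam1, an adhesion molecule between endothelial cells, had 85 counts in sNucDropseq (548 CPM), 125 in DroNcSeq (729), 14 in healthy 10x (259, 141 to 434) and 267 in UUO (1051, 929 to 1185). The UUO interval lies above all healthy ones, but healthy 10x was itself low among healthy libraries. The ratio was 2.02 (1.25 to 2.91) against healthy 10x, 0.94 (0.58 to 1.31) against sNucDropseq and 0.53 (0.22 to 0.85) against DroNcSeq. It was 1.83, 0.38 and 0.05 without the barcodes with tubule or podocyte counts.

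Cdh5 (VE-cadherin), which holds endothelial adherens junctions together, had 16 counts in sNucDropseq endothelium (103.1 CPM), 17 in DroNcSeq (99.2), 2 in healthy 10x (36.9) and 72 in UUO (284). It was highest in UUO against each reference, with ratios of 2.94 (1.03 to 6.01), 1.46 (0.66 to 2.34) and 1.51 (0.74 to 2.37). These were 2.42, 1.25 and 0.68 without the barcodes with tubule or podocyte counts.

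The share of endothelial barcodes with a UMI was compared at 1 depth, after thinning each barcode to 500 UMIs, which left out 4 of 46 healthy 10x and 151 of 326 UUO endothelial barcodes. Pecam1 was then seen in 9.52% (2.66 to 22.6) of healthy 10x and 37.7% (30.5 to 45.3) of UUO endothelial barcodes, against 1.08% and 2.07% of proximal tubule barcodes. Kdr was seen in 14.3% (5.43 to 28.5) and 5.14% (2.38 to 9.54), against 0 of 648, which allows up to 0.463%, and 0.259% in proximal tubule. At this depth the Kdr intervals overlap, and the Pecam1 intervals do not. The intervals are over barcodes of 1 library per group, which are not replicates. Before thinning, the shares were 23.9% and 43.6% for Pecam1 and 17.4% and 6.75% for Kdr, at median depths of 760 and 530.5 UMIs, while the proximal tubule barcodes held medians of 1491 and 1412.

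Emcn, a surface sialomucin of capillary and venous endothelium, had 360 counts in sNucDropseq (2320 CPM), 383 in DroNcSeq (2235), 50 in healthy 10x (924) and 138 in UUO (543). UUO was lowest in each comparison, but by different amounts. The ratio was -0.77 (-1.24 to -0.27) against healthy 10x, -2.09 against sNucDropseq and -2.04 against DroNcSeq, and without the barcodes with tubule or podocyte counts it was -1.43, -2.49 and -2.43.

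Ehd3 and Plvap were read as a pair, because they mark different capillary beds. Plvap had 30 counts in sNucDropseq endothelium (193 CPM), 49 in DroNcSeq (286), 4 in healthy 10x (73.9) and 21 in UUO (82.7). Its ratio was 0.16 (-1.41 to 2.16) against healthy 10x, -1.23 against sNucDropseq and -1.79 against DroNcSeq. Leaving out the barcodes with tubule or podocyte counts turned the healthy 10x ratio to -1.30 (-2.88 to 0.71), with -1.72 and -2.41 against the others. Ehd3 had 10 counts (64.5 CPM), 12 (70.03), 12 (222, 115 to 387) and 1 (3.94, 0.0997 to 21.9). UUO endothelium, the largest endothelial sum of the 5, thus held 1 count of Ehd3. These sums fall short of the 20 counts asked of a measured gene, at 13 against healthy 10x, and the ratios carry wide counting intervals: -5.82 (-11.2 to -3.06), -4.03 (-9.47 to -1.22) and -4.15 (-9.57 to -1.40). Each interval lies below 0. Without the barcodes with tubule or podocyte counts Ehd3 was at 378 CPM (7 counts) in healthy 10x and 4.39 CPM (1 count) in UUO, with ratios of -6.43, -3.80 and -4.36.

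Of the counts of Ehd3 and Plvap together, Ehd3 made up 25.0% (10 of 40, 12.7 to 41.2) in sNucDropseq, 19.7% (12 of 61, 10.6 to 31.8) in DroNcSeq, 75.0% (12 of 16, 47.6 to 92.7) in healthy 10x and 4.55% (1 of 22, 0.115 to 22.8) in UUO. With all barcodes, healthy 10x endothelium thus stood apart from the other healthy nuclei before any comparison with injury, on 16 counts. Without barcodes above 3 times the label's median UMIs, its Ehd3 and Plvap counts were 7 and 4. They were 10 and 30 in sNucDropseq, and 11 and 43 in DroNcSeq. Without barcodes with tubule or podocyte counts they were 7 and 4, 4 and 19, and 6 and 31, in the same order. The intervals do not allow for counts that share a barcode. Few barcodes held both genes: 2 in sNucDropseq, 5 in DroNcSeq and 0 in either 10x library. In healthy 10x, 4 of the 12 Ehd3 counts were in the same barcode of 4074 UMIs that held 6 of the Kdr counts. Dropseq endothelium held 5 counts of Plvap and 0 of Ehd3.

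**Figure D3:**
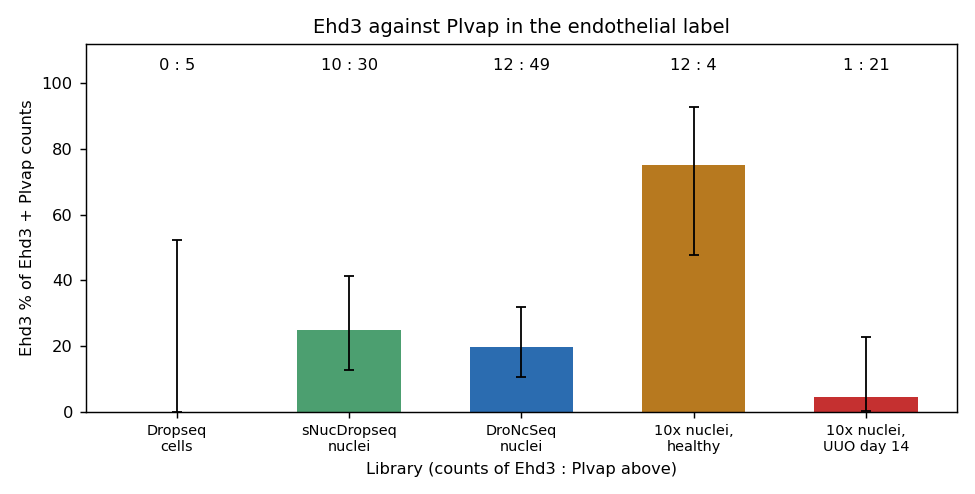
Ehd3 as a percentage of Ehd3 plus Plvap counts in the endothelial label, with exact 95% binomial intervals and the 2 counts above each bar. Healthy 10x nuclei are at 75.0% and UUO nuclei at 4.55%, on either side of sNucDropseq at 25.0% and DroNcSeq at 19.7%.

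Counted together, how many of the 9 endothelial genes passed 2-fold, beside the share of all genes, depended on the reference and on the barcodes used. Against healthy 10x, 8 were measured, 1 of them was at least 2-fold lower in UUO (Kdr) and 2 were at least 2-fold higher (Pecam1, Cdh5). Of 3418 genes measured in the same sums, 11.7% were lower and 22.7% higher, so these counts are near the background. Against sNucDropseq 3 of 8 were lower (Kdr, Emcn, Plvap) and 1 higher (Cdh5), beside 22.1% and 26% of 4506 genes. The same counts against DroNcSeq, for the same genes, stood beside 20.5% and 24.3% of 4551 genes. Without the barcodes with tubule or podocyte counts, 3 of 8 were lower and 2 higher against healthy 10x, beside 13.4% and 29.2% of all genes in the same sums. The counts were 4 and 1 of 8 against sNucDropseq, beside 15.4% and 30.6%, and 5 and 0 of 8 against DroNcSeq, beside 17.0% and 27.6%. Over all measured genes the median log2 ratio was 0.25 against healthy 10x, 0.12 against sNucDropseq and 0.08 against DroNcSeq.

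**Figure D4:**
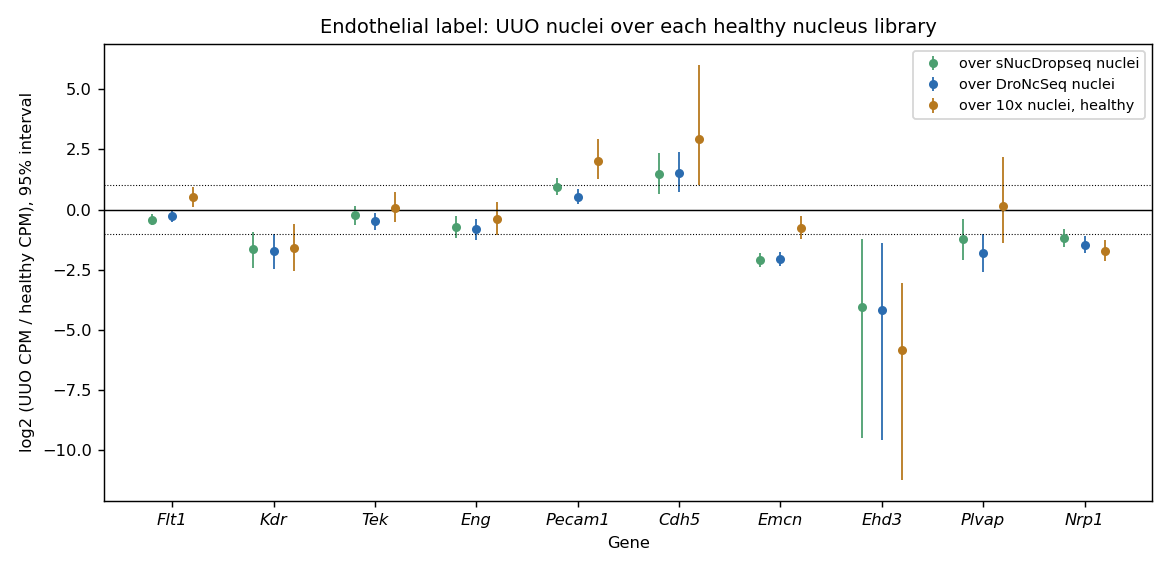
Log2 ratios of UUO endothelium over the endothelium of each healthy nucleus library for the 9 endothelial genes and Nrp1, with exact conditional 95% intervals and dotted lines at 2-fold. Kdr lies below 0 and Cdh5 above 0 against all 3 references, while Flt1 lies on either side of 0 and the intervals of Ehd3 are wide.

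The healthy nucleus libraries differed among themselves for some of these genes. DroNcSeq and sNucDropseq endothelium were close, with 0 of 9 genes 2-fold apart, beside 16.8% of 3803 genes. Against healthy 10x, sNucDropseq endothelium was at least 2-fold higher for Pecam1 (1.08), Emcn (1.33) and Plvap (1.39) and lower for Ehd3 (-1.78). That is 3 and 1 of 8 genes, beside 25.2% and 15.6% of all genes. DroNcSeq differed from healthy 10x for the same 4 genes (1.496, 1.27, 1.95 and -1.66), beside 23.6% and 14.4%. Flt1, Kdr, Tek and Eng were within 2-fold in all 3 pairs.

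Whole cells gave few counts of these genes. The 20 endothelial Dropseq cells held 9 counts of Flt1, 5 of Plvap, 4 of Kdr, 3 of Emcn, 2 each of Tek and Eng, 1 of Pecam1 and 0 of Cdh5 and Ehd3. Against sNucDropseq endothelium, 6 of 7 genes measured were at least 2-fold lower, from Kdr at -1.31 (-3.24 to 0.14) to Emcn at -4.63 (-6.91 to -3.07), and Plvap was within 2-fold at -0.31. Their median was -3.13, beside a median of -1.48 over 2139 genes, of which 58.7% were lower. Within the Dropseq library the 4 endothelial genes with 3 or more counts in endothelium were a median of 83.8-fold above other barcodes. Genes entered that median by their endothelial count, and the labels were made from these counts, so it describes the label only. Of the genes left out, Eng was 428-fold (2 counts), Tek 21.4-fold and Pecam1 9.30-fold above other barcodes. Cdh5 and Ehd3 had 0 counts in endothelium, beside 8 and 10 in other barcodes. Of the 20 cells, however, 12 held 5 or more tubule counts. The proximal tubule list summed to 3471 CPM in them all, above 1813 for the broad endothelial list. The part of this RNA in the ratios was not tested.

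Some endothelial genes were counted in other labels too. The healthy annotation has a label MC with no full name. It held Eng at 353 CPM in sNucDropseq and 287 in DroNcSeq, Emcn at 310 and 229, and Ehd3 at 74.4 and 84.1. Pericyte, mesangial and fibroblast genes summed to 1624 and 2651 CPM there. Pecam1, which leukocytes also express, was at 159 CPM in sNucDropseq, 233 in DroNcSeq and 143 in UUO nuclei labelled Mac.

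Other genes of the pathway in endothelium are given from lists written out by name, UUO over healthy 10x, on which 11.7% of all genes were at least 2-fold lower and 22.7% higher. Against sNucDropseq those shares were 22.1% and 26%, and against DroNcSeq 20.5% and 24.3%. Without the barcodes with tubule or podocyte counts they were 15.4% and 30.6% against sNucDropseq, and 17.0% and 27.6% against DroNcSeq. They stand beside the list counts of the next paragraphs too. Against healthy 10x, 2 of 4 VEGF receptors and coreceptors measured were lower (Kdr, Nrp1) and 0 higher. The same held without the barcodes with tubule or podocyte counts, where 13.4% of all genes were lower and 29.2% higher. Of the genes that relay VEGF receptor signals, 2 of 12 were lower, the adaptor Shb (-1.35) and the kinase subunit Pik3ca (-1.46), and 1 was higher, Plcg1 (1.16, 21 counts against 2), with a median of 0.07. Plcg1 turned with the reference, since it was lower than in sNucDropseq endothelium, where 2 of 12 genes were lower and 4 higher, and against DroNcSeq 1 of 13 was lower and 3 higher. Without the barcodes with tubule or podocyte counts 3 of 12 were lower and 0 higher against healthy 10x. Of the angiopoietin and TIE genes 1 of 4 was higher, the transcription factor Foxo1 that Tek signalling restrains, from 222 to 567 CPM (1.35, 0.51 to 2.34). Ptprb, the phosphatase that acts on Tek, was at 573 and 567 CPM. Foxo1 was also higher against both other healthy libraries and, against healthy 10x, without the barcodes with tubule or podocyte counts, where Tie1 was lower.

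Marker lists of glomerular and of peritubular endothelium were read side by side. Against healthy 10x, 5 of 6 measured glomerular markers were lower: Plat, a plasminogen activator (-3.62, from 628 to 51.2 CPM), Nostrin (-3.16), Smad6 (-1.88), Sema5a (-1.62) and Kdr. Their median was -1.75, beside 0.25 over all genes. Against sNucDropseq 5 of 8 were lower (Emcn, Nostrin, Kdr, Lpl, Fabp4) and 2 higher (Sema5a, Smad6), with a median of -1.47, beside 22.1% and 26% of all genes. Against DroNcSeq 2 of 6 were lower (Emcn, Kdr), with a median of -0.76, beside 20.5% of all genes. The members that were lower therefore depended on the healthy library. Without the barcodes with tubule or podocyte counts 6 of 6 were lower against healthy 10x, beside 13.4% of all genes. Against sNucDropseq 4 of 6 were then lower and 2 higher, beside 15.4% and 30.6%, and against DroNcSeq 2 of 5 were lower, beside 17.0%. Of the peritubular and venous markers 0 of 6 measured were 2-fold apart, with a median of -0.04 against healthy 10x, and Plpp1 stood at 2383 and 2012 CPM. Against sNucDropseq 4 of 8 were lower (Plvap, Igfbp3, Npr3, Rgcc), with a median of -0.78, beside 22.1% of all genes. Against DroNcSeq 1 of 8 was lower (Plvap), beside 20.5%. Leaving out the barcodes with tubule or podocyte counts, 3 of 6 were lower against healthy 10x (Plvap, Nr2f2, Plpp1), with a median of -0.86, beside 13.4%. The counts were 3 of 7 against sNucDropseq and 2 of 7 against DroNcSeq, beside 15.4% and 17.0%. Both lists thus held lower members, and no difference between them was tested.

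Among junction genes 3 of 9 were higher in UUO than in healthy 10x endothelium, Pecam1, Cdh5 and Jam2 (0 counts and 67), and 1 lower, Cgnl1 (-1.18). Against sNucDropseq and against DroNcSeq the 4 higher genes, of 9 measured, were Cdh5, Esam, Jam2 and Tjp1, beside 26% and 24.3% of all genes. With barcodes holding tubule or podocyte counts left out, 4 of 8 were higher against healthy 10x and 1 lower (Jam3), 3 of 9 were higher against sNucDropseq, and 2 were higher and 2 lower of 9 against DroNcSeq. Of all genes 29.2%, 30.6% and 27.6% were then higher, in the same order. Among endothelial transcription factors 2 of 8 were higher, Ets1 (1.31) and Lmo2 (2.09, 20 counts against 1), while Meis2 went from 3399 to 1807 CPM (-0.91). Lmo2 was at 70.9 CPM in sNucDropseq and 75.9 in DroNcSeq, close to 78.8 in UUO. Against sNucDropseq 2 of 9 were higher (Ets1, Elk3) and 2 lower (Klf2, Meis2), beside 26% and 22.1% of all genes. Against DroNcSeq 0 of 9 were higher and Meis2 was lower, beside 24.3% and 20.5%. Against healthy 10x without the barcodes with tubule or podocyte counts, 0 of 8 were higher and 2 lower (Nr2f2, Meis2), beside 29.2% and 13.4%. Among hypoxia genes Epas1 (HIF-2 alpha) was lower (-1.23, from 277 to 118 CPM) and so was Ndrg1 (-1.45), and Egln3, a HIF prolyl hydroxylase, was higher (2.13, 41 counts against 2), of 6 measured. Against sNucDropseq 1 of 6 was lower (Ndrg1) and 3 higher (Hif1a, Egln3, Ldha), beside 22.1% and 26% of all genes. Against DroNcSeq 2 of 7 were lower (Epas1, Ndrg1) and 2 higher (Hif1a, Egln3), beside 20.5% and 24.3%. Without the barcodes with tubule or podocyte counts 1 of 4 was lower (Epas1) and 1 higher (Egln3) against healthy 10x.

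Other ligands were counted in other labels. Vegfb in the ascending limb was at 92.3 CPM (70.4 to 119) in healthy 10x nuclei but 10.7 (4.91 to 20.4) in UUO nuclei. Vegfc, the lymphatic growth factor, had 2 counts in healthy 10x endothelium and 16 in UUO (63.0 CPM, 36.0 to 102), and its ratio of 0.77 had an interval from -1.32 to 3.93. Angpt1, the ligand of Tek, was highest among tubule labels in connecting tubule, at 223 CPM (162 to 301) in healthy 10x nuclei but 71.1 (51.2 to 96.1) in UUO nuclei, and stood at 101 CPM (66.8 to 145) in the UUO label Fib.1.

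Across 44 sums of a label and nucleus library with at least 20 barcodes, the profile of log2 CPM was compared for 7711 genes. The genes most like Flt1 by Pearson's r were Ptprb (0.93), Ushbp1 (0.93), Adgrl4 (0.93), Tek (0.92), Shank3 (0.90) and Emcn (0.89), and Kdr followed at 0.88. Those most like Vegfa were Lpl (0.83), Mgam (0.81), Hoxa7 (0.81), Aspa (0.80), Vwa8 (0.80) and Anks1b (0.80). Vegfa and Flt1 were at -0.02. The sums of a library share its platform and depth, so these values describe the profiles only.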

How the data were processed

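UMI counts per gene and barcode were deposited by the authors in 2 tables, 1 of the 4 healthy libraries and 1 of the UUO library, with cell labels. Per the deposited readme the counts are raw output of zUMIs. The submitters' processing notes name the aligner STAR 2.5.3a and the build mm10. Intron counting, strand, annotation and filters were not given in the sources used here.

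Subtype labels were summed to broader classes, no barcode was removed, and doublets were not called. Counts were summed per class and library and scaled to CPM, with exact Poisson intervals. Log2 ratios carry exact conditional intervals and shares Clopper-Pearson intervals, at 95%, and all cover counting error only. A ratio was measured if its gene was listed on both sides with at least 20 counts in all, and called at 2-fold. No test was possible with 1 library a group. The calculation was tested on simulated data.

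The 10 genes and all lists were chosen with earlier results of these data known. The text names the 10 genes, list members past 2-fold or highest in CPM, and the 6 genes most like Flt1 and Vegfa (over genes with a mean of 20 CPM or more, after adding 10 CPM). Genes chosen after their values were seen are Nrp2, Meis2, Ptprb, Vegfb, Vegfc and Angpt1. Svep1 also met none of the naming rules. Outside endothelium, the labels in which Nrp1, Svep1 and the hypoxia genes are given were not set by a rule, and their other labels are not shown.

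Settings varied were the scaling (TMM, median of ratios), other totals, a mean over barcodes, UMI minimums of 500 and 1000, no high barcodes, other count minimums, other healthy references and thinning to 300 UMIs. Leaving out endothelial barcodes with 5 or more tubule or podocyte marker counts was added after seeing the data. Python 3.11.15 (numpy 2.4.6, scipy 1.17.1, pandas 2.3.3, matplotlib 3.10.9) and R 4.3.3 (edgeR 4.0.16, for TMM factors only) were used. Promoters came from RefSeq.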

Additional observations from a re-analysis of the deposited data

How the results depend on the processing

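No paired analysis was possible because each group held 1 library. There were 245 alternative values. A change of sign was looked for only in ratios past 2-fold in the main setting, beyond the main counting interval, and none was found. Gene counts, percentages and ratios within 2-fold could not be scored that way. Endothelial ratios with a count of 0 on a side were left out. Of the 245, 18 values of the main comparisons and 19 of single genes moved beyond their counting interval, or by over 1.5 times for a count. The count of endothelial genes lower in UUO, 1 against healthy 10x, was 0 with a mean of CPM over barcodes, with barcodes of 1000 UMIs or more, without high barcodes or at a count minimum of 50, and 2 at a minimum of 5. It was 3 against sNucDropseq, against DroNcSeq and, as an alternative chosen after seeing the data, without endothelial barcodes holding tubule or podocyte counts. The count of higher genes, 2, was 1 against sNucDropseq and 1 against DroNcSeq. The Vegfa ratio in proximal tubule, -2.96, was -4.40 and -4.17 against those references. The 8 gene and library pairs 2-fold apart among healthy nuclei, of 16, were 5 of 14 without barcodes holding tubule or podocyte counts. The Ehd3 percentage in UUO was 0 with barcodes of at least 500 or 1000 UMIs. The share of healthy 10x endothelium with Kdr was 4.35% after thinning to 300 UMIs, that with Pecam1 23.9% unthinned, and that of UUO with Pecam1 26.7% at 300 UMIs. The cause of these shifts was not tested.

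Median-of-ratios scaling lowered log2 ratios of UUO over healthy 10x endothelium by 0.23 and TMM by 0.10, which turned Tek to -0.16 and -0.03, and Plvap to -0.07 under the first. Plvap, at 0.16, was -1.23 against sNucDropseq, -1.79 against DroNcSeq and -1.30 without barcodes holding tubule or podocyte counts. For Dropseq over sNucDropseq endothelium they raised ratios by 0.97 and 0.95, enough to turn Plvap. Depth limits healthy 10x endothelium, where 46 barcodes held 54128 UMIs, and Dropseq endothelium with 31983.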

Other observations

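Hypoxia genes of the tubule were read in the same labels as Vegfa. Egln3, a HIF prolyl hydroxylase that HIF itself induces, was at 8.76 CPM (1 count) in healthy 10x principal cells and 397 CPM (341 to 460) in UUO principal cells. In connecting tubule it had 0 counts in healthy 10x and 85 in UUO (144 CPM, 115 to 178), and in the ascending limb it stood at 9.23 and 48.9 CPM. Hif1a in principal cells was at 324 CPM (228 to 447) in healthy 10x nuclei but 587 (518 to 663) in UUO nuclei. Epas1 in proximal tubule was at 28.6 CPM (19.8 to 40.0) and 6.60 (4.23 to 9.82), and in the UUO label Fib.1 at 108 CPM. In principal cells Vegfa was at 78.9 and 33.9 CPM in the same libraries.

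Fibroblast nuclei of the UUO library carried vascular ligands and a coreceptor. In Fib.1, Nrp1 was at 581 CPM (495 to 678) and Svep1, a matrix protein that binds TIE1, at 233 CPM (180 to 297), against 11.8 CPM in UUO endothelium. The healthy annotation holds no fibroblast label, so these have no value in a healthy fibroblast label. Pericyte, mesangial and fibroblast genes summed to 1608 CPM in Fib.1. In the healthy label MC they summed to 1624 CPM in sNucDropseq and 2651 in DroNcSeq, and Fib.1 was not compared with MC.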
